A study of Homo sapiens with 14 samples.

Results

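Translation initiation and elongation factors are described here in cells labelled HepG2 that received scrambled siRNA (control) or siRNA against ADAR1 (KD). The members are the rows of the deposited RPKM table whose symbol starts with EIF or EEF and a digit, without the EIF2AK kinases, the EIF2C genes and any symbol ending in Y. The rule used names only and found 58 of 21574 rows, of which 49 are EIF and 9 are EEF rows. RPKM, reads per kilobase of transcript scaled to a common library size, is a level per transcript length. Of the 58 rows, 13 list more than 1 symbol, mostly a factor with a small nucleolar RNA or microRNA, so that their values are those of the joined row.

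HepG2 is a line from a human liver carcinoma. Both groups were nucleofected with siRNA at 20 µM for 48 h, which the protocol text calls a stable transfection. Each condition was measured by PARS-seq, in which purified poly(A) RNA is cut in vitro with S1 nuclease (single-stranded RNA) or RNase V1 (double-stranded RNA) and the cut ends are sequenced, in 2 replicates for each nuclease. RNA-seq has 1 library and Ribo-seq, the sequencing of ribosome-protected fragments, has 2 libraries for each condition, which makes 14 samples in all. The paper calls the replicates of PARS-seq and Ribo-seq biological, while the labels number them without naming separate cultures. The p-values measure the spread between these libraries, a part of which may be technical. In such bulk samples fewer cells of a kind and less RNA per cell cannot be told apart.

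Translation of an mRNA begins when eIF2 brings the initiator tRNA to the small ribosomal subunit, eIF4E, eIF4G and the helicase eIF4A prepare the capped end of the mRNA, and eIF3 holds these parts together until eIF1, eIF1A, eIF5 and eIF5B select the start codon and join the large subunit. eIF2B reloads eIF2 with GTP and is the target of the integrated stress response, in which kinases such as the double-stranded RNA sensor PKR phosphorylate eIF2. In elongation, eEF1A delivers aminoacyl-tRNA, the eEF1B subunits recharge it, and eEF2 moves the ribosome by a codon. Many mRNAs of this machinery begin with a C and a run of pyrimidines, the terminal oligopyrimidine motif, through which mTOR signalling controls their translation.

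Facts of the whole series bear on these values. ADAR itself had 54.8 RPKM in control and 15.4 in KD by RNA-seq. In Ribo-seq it had 43.6 in control and 8.73 in KD in replicate 1, but 55.5 and 44.0 in replicate 2, so that replicate 2 carries the weaker reduction. The defining liver genes ALB, APOA1, APOB, AFP, TTR and SERPINA1, all 6 of them measured, reached at most 0.0821 RPKM in any RNA-seq or Ribo-seq library and 0.0308 in PARS-seq, with AFP, APOB and TTR listed at 0 in every RNA-seq and Ribo-seq library. A 0 can be a gene that was not counted, as for ABCF1, a widely used translation gene listed at 0 in all columns, but each of the 6 liver genes had a value above 0 in at least 1 column. The fibroblast markers VIM and COL1A1 summed to between 356 and 668 RPKM in the same libraries, while blood markers stayed at or below 0.275 and PECAM1 at or below 0.0892. The liver markers therefore go against the label, and the cells are called here the cells labelled HepG2. The RPKM values resolve to whole reads, out of 40729941 and 30209865 reads in RNA-seq control and KD, 995682 and 1404542 in Ribo-seq replicate 1, and 3322918 and 2405072 in Ribo-seq replicate 2. A member had a median of 4061 reads in the RNA-seq control and of 81.5 reads in Ribo-seq control replicate 1, where 32 of the 58 members had fewer than 100 reads, so that the Ribo-seq values have the larger counting error.

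The beginnings of the members' genes show which of them carry the pyrimidine start. The RefSeq promoter table (GRCh38.p14) holds 47 of the 58 members. At 12 of them, or 25.5%, the annotated start is a C followed by at least 4 bases of C or T, against 5.14% of the 27305 genes in the table. This rule was chosen after the sequences were seen. By the rule of a run of at least 8 bases of C or T that begins with C within 10 bases of the start, 9 members had it, or 19.1%, against 11.3% of all genes. The 12 are EEF1A1, EEF1B2, EEF2, EIF2A, EIF2D, EIF2S3, EIF3D, EIF3F, EIF3K, EIF3M, EIF4A2 and EIF4B. The windows below hold 8 bases before and 22 from the start, with the pyrimidine run from the start in capitals, for 6 members whose values are described in detail.
EEF1A1, chr6:73521011-73521040, minus strand: tgaacgttCTTTTTCgcaacgggtttgccg
EEF2, chr19:3985442-3985471, minus strand: tcagcgttCTCTTCCgccgtcgtcgccgcc
EEF1B2, chr2:206159887-206159916, plus strand: cttcgggtCCTTTTTCCTCTCTTCagcgtg
EIF3F, chr11:7987329-7987358, plus strand: tccgcctcCTTCTTTCTCgacaagatggcc
EIF2D, chr1:206612444-206612473, minus strand: agccgggcCCTTTTCgcggccgggccccag
EIF4A2, chr3:186783569-186783598, plus strand: gccgctgtCTTTTCagtcgggcgctgagtg
EEF1B2 has another annotated start upstream that lacks the run. These 12 members had a median of 57.2 RPKM in the RNA-seq control, against 26.6 for the 35 other members in the table. A match describes the letters of the reference at the annotated start, which need not be the start used in these cells.

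The 3 eIF2B subunits shown next, among them the pair EIF2B1 and EIF2B2 whose RNA-seq levels were lower in KD, share other letters at the start. CGGAAGT, the core bound by ETS family factors, was searched on both strands of the 300 bases around each start and lies at EIF2B1, EIF2B2 and EIF2B5, that is at 3 of the 5 eIF2B subunits. It was found at 12 of the 47 members, or 25.5%, and at 8.18% of all genes, and it was chosen after the sequences were seen. The windows hold 20 bases before and 10 from the start, with the match in capitals.
EIF2B1, chr12:123633677-123633706, minus strand: cggaagaggggtaCGGAAGTgcgccggaag
EIF2B2, chr14:75002901-75002930, plus strand: aagccgacctcgcccgcccCGGAAGTgcaa
EIF2B5, chr3:184135338-184135367, plus strand: cgtgcggtggcagcttccttgCGGAAGTgg
EIF2B1 has further matches 45 bases before and 4 bases after its start. EIF2B5 carries the letters too, although its RNA-seq values of 30.5 RPKM in control and 29.8 in KD were nearly equal. EEF1B2 carries them 13 bases before an annotated start, and its RNA-seq values were higher in KD, with 83.7 RPKM in control and 128 in KD.

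In control cells the factors spanned more than 4 orders of magnitude. EEF2, the translocase, was the most abundant member in RNA-seq with 1818 RPKM in control and 1996 in KD, followed by EIF5A, which helps ribosomes past difficult peptide bonds, with 556 and 628. The eEF1B subunits EEF1G and EEF1D had 370 and 241 RPKM in control. EIF4E1B, a germline relative of the cap-binding protein, was the lowest coding member with 0.0746 RPKM in control and 0 in KD. All members together held 1.49% of the summed RPKM in RNA-seq control and 1.56% in KD. In Ribo-seq their share went from 0.966% in control to 1.07% in KD in replicate 1 and from 0.915% to 0.861% in replicate 2. EIF3K and EIF3G, small subunits of eIF3, led their complex with 247 and 237 RPKM in the RNA-seq control, and EIF6, which keeps the ribosomal subunits apart, had 130. Among start codon factors EIF1 had 142 RPKM and its close relative EIF1B 15.3, and EEF2K, the kinase that inactivates eEF2, had 10.6.

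**Figure D1:**
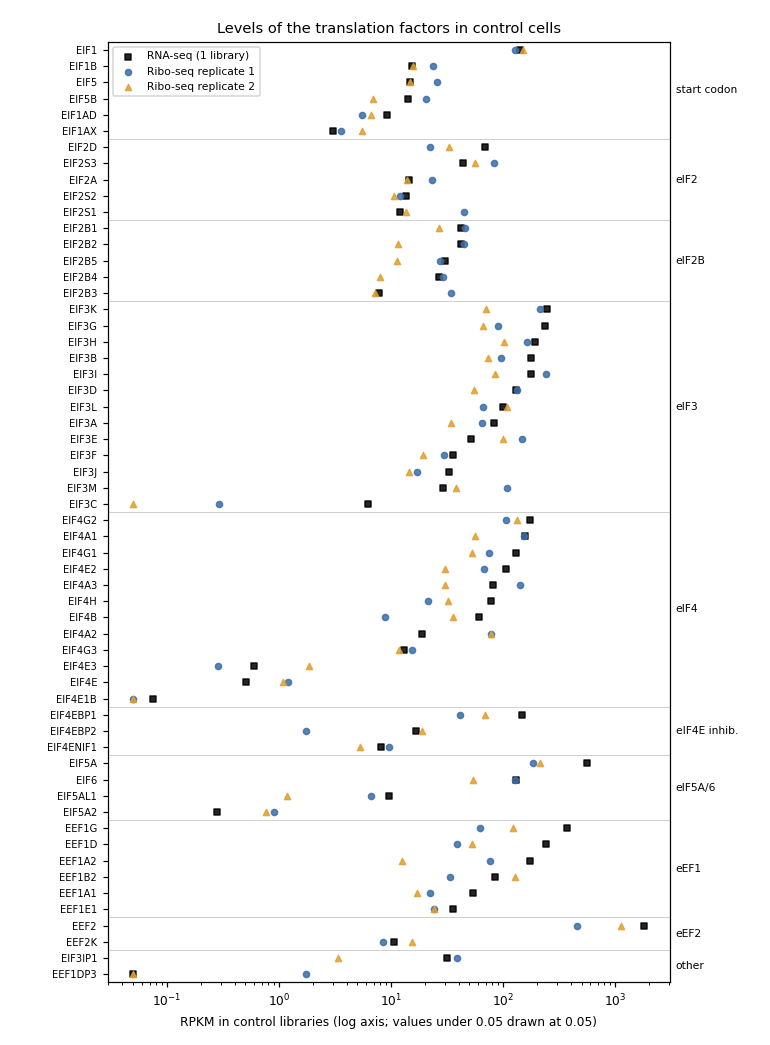
RPKM of the 58 members in the control libraries on a log axis, with RNA-seq as squares, Ribo-seq replicate 1 as circles and replicate 2 as triangles, in role groups ordered by the RNA-seq value. Values under 0.05 are drawn at 0.05, EEF2 lies farthest to the right at 1818 RPKM, and EIF4A2 has both Ribo-seq points together to the right of its RNA-seq square.

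Paralogs stood far apart. EIF4A1 and EIF4A2 are near-identical helicases, but the EIF4A1 row also lists SENP3, another protein-coding gene, and small RNAs, so that its level is not that of EIF4A1 alone. EIF4A1 had 157 RPKM in RNA-seq control and EIF4A2 had 19.0, while in Ribo-seq control they had 153 and 77.8 in replicate 1 and 56.2 and 78.2 in replicate 2. Their order in the control therefore reversed between the Ribo-seq replicates. EIF5A2 had 0.279 RPKM where EIF5A had 556. EIF1AX, which scans with eIF1 for the start codon, had 3.01 RPKM in RNA-seq control and 3.57 and 5.54 in the Ribo-seq control replicates.

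EEF1A1 and EEF1A2 code for nearly the same protein. In RNA-seq EEF1A2 exceeded EEF1A1, with 173 against 53.2 RPKM in control and 146 against 35.8 in KD. In PARS-seq, where the table holds the authors' mean over the S1 and V1 library of a replicate, the control values were 147 and 84.5 RPKM for EEF1A1, above its RNA-seq value, and 6.16 and 6.77 for EEF1A2, below its own. EEF1A1 has many processed copies in the genome and the authors kept uniquely aligned reads, so that its RPKM are uncertain. The same holds for EIF5AL1, a copy of EIF5A, for EIF3IP1, a processed copy of EIF3I, and for the joined row of the duplicated genes EIF3C and EIF3CL, which had 6.24 RPKM in RNA-seq control but 0.290 and 0 in the Ribo-seq control replicates.

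Subunits of the same complex were unequal in RNA-seq and not ordered alike in Ribo-seq. Among the 12 eIF3 subunits other than the EIF3C row, RNA-seq control values ran from 29.1 RPKM for EIF3M to 247 for EIF3K, an 8.48-fold span. The span was 14.3-fold in Ribo-seq control replicate 1, from EIF3J to EIF3I, and 7.58-fold in replicate 2, from EIF3J to EIF3L. The 5 eIF2B subunits ran from 7.78 RPKM for EIF2B3 to 41.9 for EIF2B1 in RNA-seq control, a 5.39-fold span. In Ribo-seq control replicate 1 they lay within 1.69-fold, from 27.0 to 45.7 RPKM, but in replicate 2 they spanned 3.73-fold. In all 6 libraries EIF2S3, the GTP-binding subunit of eIF2, was the most abundant of its 3 subunits.

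The Ribo-seq to RNA-seq ratio, which the study calls translation efficiency, was compared as log2(Ribo-seq RPKM + 1) minus log2(RNA-seq RPKM + 1). RPKM was counted over whole transcripts while ribosomes cover the coding part, so that a long untranslated part lowers the ratio of a gene. Across the 52 members with a mean of at least 1 RPKM in both assays the median log2 ratio in control was −0.58, against −0.52 over all 10142 such genes. The replicates disagreed on the side. The members' median was −0.22 against −0.38 for all genes with replicate 1, and −0.93 against −0.61 with replicate 2.

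EIF4A2 had the highest mean log2 ratio of the members, 1.98 with both control replicates, and lay above 99.0% of all genes. EIF3E followed with 1.49 and 0.96, EIF3M with 1.85 and 0.37, and EIF2S1, the subunit of eIF2 that the stress kinases phosphorylate, with 1.83 and 0.17. EIF2B3 had 2.00 and −0.11, so that its place rests on replicate 1. On the mean of both replicates 12 of the 52 members had ratios above 0, as had 3186 of the 10142 genes, and the place of 0 depends on how the libraries are scaled. The EIF4A2 row is joined with MIR1248, SNORA4, SNORA63, SNORA81 and SNORD2. Both ratios of a member divide by the same RNA-seq library, so that their agreement does not check its value. In control the mean PARS-seq RPKM was 5.60 times the RNA-seq RPKM for EIF4A2, 1.58 for EIF3E, 12.6 for EIF3M, 2.92 for EIF2S1 and 2.84 for EIF2B3. For EEF1A2, EEF1D and EEF1G, which had the lowest ratios, it was 0.0374, 0.216 and 0.257 times. How far this library sets the order was not tested.

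The 3 lowest mean ratios were those of the elongation factors EEF1A2, EEF1D and EEF1G, and the next were those of EIF4B, EIF3G, EIF4H, EIF5A and EIF4EBP1, between −1.72 and −1.45. EEF1D had log2 ratios of −2.61 and −2.17, EEF1G of −2.54 and −1.58, and EEF1A2 of −1.16 and −3.70 with the control replicates. EEF1A1, with −1.22 and −1.59, and EEF2, with −2.00 and −0.70, lay above these 5 on the mean ratio, and EEF2K lay above the median of all genes. Of the 6 members placed in the eEF1 group by their symbols, EEF1E1 among them, 1, EEF1B2, lay above the median of all genes, with −1.29 and 0.59. None of the 3 measured eIF5A and eIF6 members did. Among the initiation groups 5 of 6 start codon factors, 4 of 5 members of the eIF2 group, 2 of 5 eIF2B subunits, 4 of 12 eIF3 subunits, 3 of 9 eIF4 members and 1 of 3 inhibitors of eIF4E did, and differences between groups were not tested. The 12 members with the pyrimidine start had a median log2 ratio of −0.57 and the 30 others with a promoter entry and a ratio had −0.54. The replicates disagreed on the side, with −0.23 against −0.10 in replicate 1 and −0.733 against −0.997 in replicate 2. Of the 12, EIF4A2 had the highest mean ratio and EIF4B the lowest, with EEF1A1 and EEF2 next above EIF4B.

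**Figure D2:**
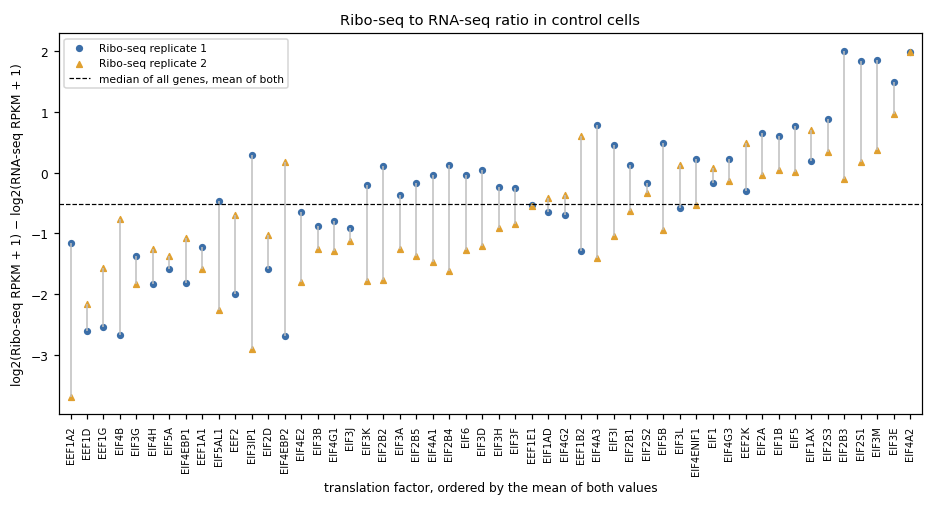
Log2 ratio of Ribo-seq to RNA-seq RPKM, each with 1 added, in control for the 52 members measured in both assays, with replicate 1 as circles, replicate 2 as triangles and a line joining them. The dashed line is the median of all genes at −0.52. EIF4A2 has both points at 1.98 at the right end, and EEF1D and EEF1G have both points far under the dashed line.

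The knockdown comparison asked which factors differed between KD and control. In RNA-seq, with 1 library per condition and no replicate check, 6 of 53 measured members differed by more than 1.5-fold, 3 higher in KD and 3 lower. This share, 5.66% in each direction, is near that of all genes, of which 9.13% passed the same rule, 4.47% higher and 4.66% lower. The median log2 change of the members was −0.01, as it was over all genes. The rule is set on log2(RPKM + 1), and folds given for single members are ratios of RPKM. The 6 were EIF2B1, EIF2B2 and EIF4G2 on the lower side and EIF3F, EIF4EBP1 and EEF1B2 on the higher. Of 31 other genes of the translation apparatus 28 are in the table and 27 were measured, and none of them passed the rule on log2(RPKM + 1) in either direction. By the ratio of RPKM, which lacks the added 1, EIF2AK2 was 1.62-fold higher in KD, from 2.51 to 4.08 RPKM, and GSPT2 and EIF2AK3 were lower, at 0.533 and 0.651 times the control.

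EIF2B1 and EIF2B2 are the alpha and beta subunits of the exchange factor. EIF2B1 (chr12:124104953-124118313 in GRCh37) had 41.9 RPKM in RNA-seq control and 20.8 in KD, 2.01-fold lower. In Ribo-seq it had 45.7 in control and 27.4 in KD in replicate 1, and 26.7 and 22.9 in replicate 2. In PARS-seq the authors' means were 24.2 and 24.8 in control and 14.4 and 14.7 in KD. EIF2B1 was thus lower in KD in every assay and replicate, with the smallest difference in Ribo-seq replicate 2.

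EIF2B2 (chr14:75469624-75479069 in GRCh37) had 41.7 RPKM in RNA-seq control and 24.1 in KD, 1.73-fold lower. Its Ribo-seq values were 45.0 and 25.4 in replicate 1 but 11.5 and 19.2 in replicate 2, where KD was the higher. In PARS-seq it had 23.7 and 17.3 in control and 9.02 and 7.91 in KD. The direction in replicate 2 of Ribo-seq was thus opposite to that in the other assays. The other eIF2B subunits differed less in RNA-seq, with 30.5 and 29.8 RPKM for EIF2B5, 26.6 and 30.2 for EIF2B4, and 7.78 and 5.33 for EIF2B3, in control and KD.

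EIF4G2 (chr11:10818597-10830487 in GRCh37), a relative of the eIF4G scaffold that lacks the part binding eIF4E, had 172 RPKM in RNA-seq control and 108 in KD, 1.59-fold lower. In Ribo-seq it had 106 and 78.5 in replicate 1 and 133 and 111 in replicate 2. In PARS-seq it had 163 and 155 in control and 82.3 and 72.8 in KD. All pairs had the lower value in KD, and the PARS-seq differences were the largest, 1.99-fold and 2.13-fold. The scaffold EIF4G1 differed the other way in PARS-seq, from 89.9 and 94.2 in control to 116 and 122 in KD, with 130 and 139 in RNA-seq.

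EIF3F (chr11:7991798-8023409 in GRCh37), a subunit of eIF3 with a deubiquitinase-like fold, had 35.6 RPKM in RNA-seq control and 57.8 in KD, 1.62-fold higher. In Ribo-seq it had 29.6 and 40.8 in replicate 1 and 19.4 and 31.4 in replicate 2. In PARS-seq it had 18.8 and 17.5 in control and 32.6 and 36.9 in KD. The KD and control values of EIF3F did not overlap in Ribo-seq or in PARS-seq. Of the other eIF3 subunits none passed the 1.5-fold rule in RNA-seq, although the EIF3C row, at 6.24 and 3.99 RPKM, was 1.57-fold lower by the ratio of RPKM and passed with 0.1 added in place of 1, and 8 of the 13 rows were higher in KD by any amount, as were 5251 of all 10946 genes.

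EIF4EBP1 is an mTOR-controlled inhibitor of eIF4E. It had 147 RPKM in RNA-seq control and 222 in KD, 1.51-fold higher, and in Ribo-seq 40.9 and 73.8 in replicate 1 and 68.7 and 92.0 in replicate 2. In PARS-seq it had 58.7 and 51.1 in control and 84.7 and 107 in KD. Its relative EIF4EBP2 differed the other way in RNA-seq, with 16.6 and 13.1, and in PARS-seq, with 11.7 and 10.7 in control and 7.97 and 7.18 in KD. Its Ribo-seq values were 1.73 and 2.17 in replicate 1 and 18.9 and 12.3 in replicate 2. EEF1B2 (chr2:207024309-207027652 in GRCh37), the exchange subunit of eEF1B, had 83.7 RPKM in RNA-seq control and 128 in KD, 1.53-fold higher. Its Ribo-seq values were 33.7 and 38.5 in replicate 1 and 127 and 176 in replicate 2, and its PARS-seq values 28.8 and 21.7 in control and 37.7 and 42.4 in KD. EEF1B2 is a joined row with SNORA41 and SNORD51. EIF4EBP1 and EEF1B2 were thus higher in KD in every assay and replicate.

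**Figure D3:**
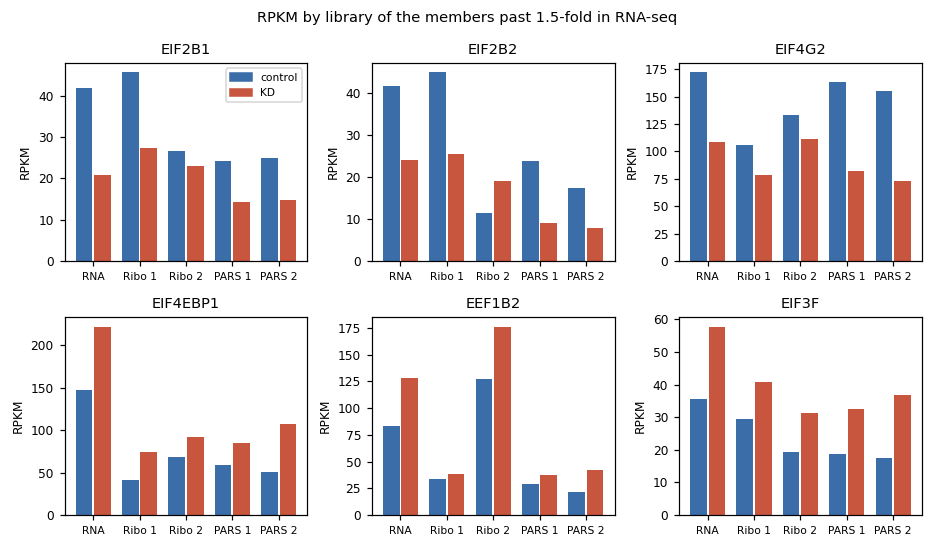
RPKM in each RNA-seq and Ribo-seq library and in each PARS-seq column (authors' means) for the 6 members past 1.5-fold in RNA-seq, with control in blue and KD in red and each bar a single value. EIF2B1 and EIF4G2 have the lower bar in KD in all pairs, EIF3F, EIF4EBP1 and EEF1B2 the higher, and EIF2B2 turns round in Ribo-seq replicate 2.

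In Ribo-seq, limma on log2(RPKM + 1) without a replicate block called none of the 55 measured members at an adjusted p under 0.05. It called 0.0% of the 10882 genes tested, with 43 genes and no member at an unadjusted p under 0.05, and limma voom on the recovered reads, also unblocked, called none either, with 31 genes and no member at that p. The median log2 difference of the members was 0.25 against 0.08 for all genes. It came mostly from replicate 2, where the members' median was 0.43 and that of all genes 0.16. In replicate 1 the medians were 0.05 and −0.02. Replicate 2 is the pair with the weaker reduction of ADAR, from 55.5 RPKM in control to 44.0 in KD, against 43.6 to 8.73 in replicate 1. The control libraries of replicates 1 and 2 had a correlation of 0.773 across genes, less than the 0.959 and 0.945 between the control and KD libraries that share a number, so that the replicates stood apart by more than the conditions did. For this reason the values are given for each replicate.

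In replicate 1, 4 members were past 1.5-fold higher in KD and 3 lower, 7.27 and 5.45% of the members, against 9.7 and 11.0% of all genes. The 4 were EIF1, EIF4A2, EIF4EBP1 and the copy EIF5AL1, and the 3 were EIF2B1, EIF2B2 and the copy EIF3IP1. In replicate 2, 19 members were past 1.5-fold higher, or 34.5%, and none lower, against 19.9 and 8.19% of all genes. By a count chosen after the data were seen, the KD values of 13 members lay above both control values, or 23.6%, against 10.7% of all genes. Those of 1 member, EIF5A, lay below, or 1.82%, against 7.12%. The 13 were EIF1, EIF1AD, EIF5, EIF2S2, EIF3E, EIF3F, EIF3J, EIF4A2, EIF4E, EIF4EBP1, EIF5A2, EEF1A1 and EEF1E1. EIF5A2 averaged 0.834 RPKM in control and passed the filter of a mean of 1 RPKM only through KD. Its values rest on 5 and 14 recovered reads in control replicates 1 and 2 and on 8 and 20 in KD. Those of EIF4E rest on 6 and 18 recovered reads in control and on 15 and 17 in KD. EIF1, which guards the choice of the start codon, went from 126 RPKM in control to 194 in KD in replicate 1 and from 150 to 211 in replicate 2, while its RNA-seq values were 142 and 141. Its limma difference was 0.55 ± 0.55 (log2, SE, adjusted p = 1.00).

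EIF4A2 had 77.8 and 78.2 RPKM in the Ribo-seq control replicates and 145 and 92.0 in KD, with 19.0 and 15.4 in RNA-seq. EIF3E, a subunit of eIF3, had 146 and 100 in control and 184 and 182 in KD. EIF5A had 185 and 214 in control and 144 and 183 in KD, against 556 and 628 in RNA-seq, so that its Ribo-seq and RNA-seq differences had opposite signs. The values of the groups did not overlap for these 3 members, and none passed limma, with adjusted p = 1.00 for each of them. EIF4A3, a helicase of the exon junction complex rather than of initiation, was 1.39-fold higher in KD in replicate 1 and 2.48-fold higher in replicate 2, although its groups overlapped.

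The change of the Ribo-seq to RNA-seq ratio between KD and control was tested as an interaction, where the single RNA-seq libraries are assumed to vary like the Ribo-seq libraries. limma called none of the 52 members and 0.0% of the 10142 genes, with 2 genes and no member at an unadjusted p under 0.05. The members' median log2 change of the ratio was −0.00 with replicate 1, against 0.01 for all genes, and 0.41 with replicate 2, against 0.18. The ratio was higher in KD with both replicates for 20 members, or 38.5%, against 35.7% of all genes, and lower with both for 7, or 13.5%, against 23.3%. Both ratios rest on the same pair of RNA-seq libraries. EEF1A1 had the smallest p of the members, with a log2 change of 1.02 ± 0.79 (SE, adjusted p = 1.00). Its RNA-seq values were 53.2 in control and 35.8 in KD, and its Ribo-seq values 22.3 and 28.2 in replicate 1 and 17.0 and 26.2 in replicate 2.

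In PARS-seq, with 2 values a condition, both KD values lay above both control values for 23 of 55 measured members, or 41.8%, and below them for 9, or 16.4%. Over all genes 60.5% did not overlap, with 33.3% higher and 27.1% lower. With a difference of at least 1.5-fold between the means as well, 6 members were higher and 5 lower, against 16.5% of all genes in either direction. The pseudogene EEF1DP3 is among the higher members in both counts, with 0.520 and 0.435 RPKM in control and 6.02 and 3.85 in KD. It passed the filter of a mean of 1 RPKM only through KD. No test was made, as the columns are means over the S1 and the V1 library. EIF3A, the large scaffold of eIF3, had 303 and 364 RPKM in control and 504 and 532 in KD, with 83.4 and 91.4 in RNA-seq. EIF5B, the GTPase that joins the subunits, had 17.8 and 25.3 in control and 35.1 and 49.1 in KD. EEF1A2 had 6.16 and 6.77 in control and 1.84 and 2.31 in KD, while its RNA-seq values of 173 and 146 were closer.

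PARS-seq and RNA-seq levels differed widely for some factors. In control the mean PARS-seq RPKM was 17.7 times the RNA-seq RPKM for EIF5, the GTPase activator of eIF2, and 12.6 times for EIF3M. It was 0.0374 times for EEF1A2 and 0.216 times for EEF1D. EIF5 is a joined row with SNORA28, and EIF3M is not a joined row. PARS-seq values of different genes are therefore not read as an order of levels.

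Across the assays, 13 of the 52 members measured in all of them had non-overlapping PARS-seq values and the higher value in KD in RNA-seq and in both Ribo-seq pairs, or 25.0%, against 12.0% of all genes. On the lower side were 2 members, EIF2B1 and EIF4G2, or 3.85%, against 8.09%. The 13 were EIF2S2, EIF2S3, EIF2B4, EIF3A, EIF3E, EIF3F, EIF3H, EIF3J, EIF4A3, EIF4EBP1, EIF5B, EEF1B2 and EEF1E1, of which 5 are eIF3 subunits. The EEF1E1 row also lists TXNDC5 and MUTED, so that its values are not those of EEF1E1 alone. All 13 stayed higher, and both of the others lower, after the all-gene median was subtracted from the RNA-seq difference, from each Ribo-seq pair and from the mean PARS-seq difference. Within PARS-seq replicate 1 alone, the log2 difference of EIF3H, 0.03, lay under the all-gene median of 0.04. Most of the differences in RNA-seq were small. EIF2S3 had 43.9 and 52.4 RPKM and EIF2S2 13.7 and 16.6, in control and KD. EIF3H had 194 and 214, and EIF3J 32.6 and 33.6. RNA-seq has no replicate and the Ribo-seq differences did not pass limma, so that these counts describe the libraries.

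**Figure D4:**
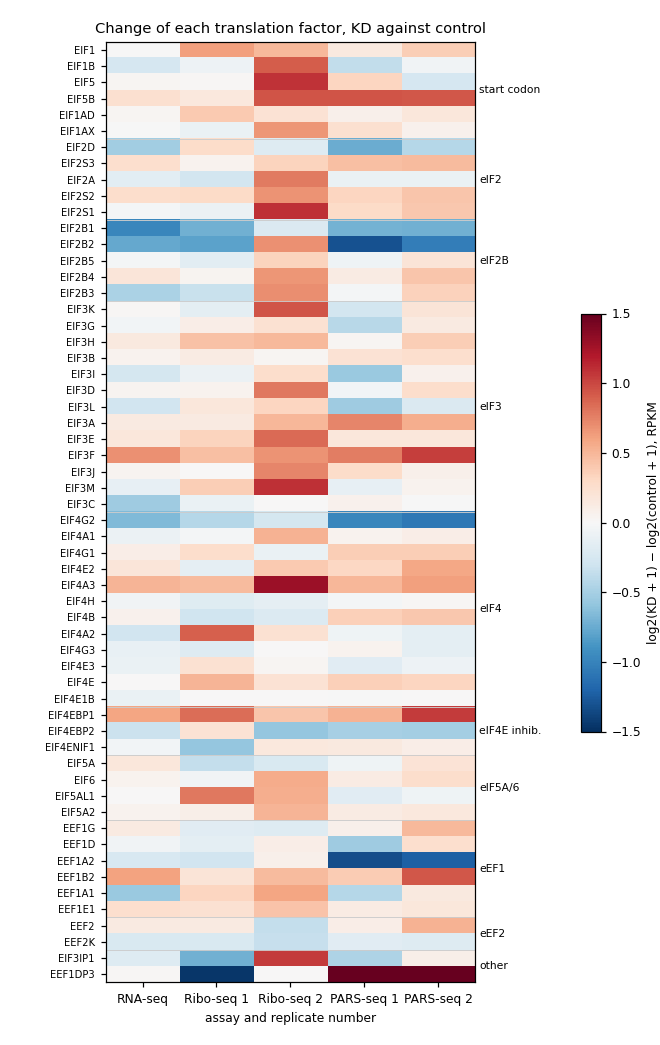
Log2 difference of KD and control RPKM, each with 1 added, for the 58 members in RNA-seq, both Ribo-seq replicates and both PARS-seq replicates, with red for higher and blue for lower in KD and colours capped at 1.5. EIF2B1 and EIF4G2 are blue and EIF3F, EIF4EBP1 and EEF1B2 red in every column, and the column of Ribo-seq replicate 2 is redder than that of replicate 1.

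Of the other genes of the translation apparatus, 2 of 27 measured lay above and 2 below both control values in Ribo-seq, or 7.41% each, near the 10.7 and 7.12% of all genes. EIF2AK2, the kinase PKR, had Ribo-seq values in control and KD of 10.2 and 24.9 in replicate 1 and 6.09 and 10.2 in replicate 2, and in PARS-seq 44.7 and 44.4 in control and 69.2 and 54.9 in KD. Each KD value of this upstream kinase of eIF2 was higher than its control value.

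Read starts per transcript give the S1 and V1 libraries separately, and are written as RPM, read starts scaled to 1000000 in all over the transcripts compared. They could be named for 17 members, which the study's supplement pairs with a UCSC transcript because of a structural difference in these libraries, so that they are not a random part of the members. The copy of the supplement used here was shortened, and members paired in the rest of it are not among the 17. The S1 library of control replicate 1 holds 4722 transcripts, where the others hold 21052 to 22402. Between 26.0 and 54.7% of the read starts fell on uc022brd.2 alone, and with scaling by the library total the median of all transcripts was −0.36 (log2, KD minus control) in S1 and −0.14 in V1. Changes are therefore also given relative to these medians. limma called 3 of the 17 members in S1, all lower in KD, where 20.1% of 4721 transcripts were called and 18.6% on the lower side. In V1 it called 1 of 17, also lower, where 9.95% of 16885 were called and 7.9% on the lower side. The split of all calls depended on the scaling. S1 had 70 transcripts higher and 878 lower by the library total but 306 and 438 with TMM, where 1 member was higher and 1 lower. V1 had 346 higher and 1334 lower by the total, 677 and 991 with TMM, and 890 and 893 when the total left out the most covered transcript.

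EIF2B1 was called with both nucleases. It had 32.6 and 29.8 RPM with S1 in control and 14.1 and 15.6 in KD. With V1 it had 24.9 and 22.6 RPM in control and 10.2 and 13.5 in KD. The groups did not overlap with either nuclease. The limma difference was −1.07 ± 0.33 (log2, SE, adjusted p = 0.00924) in S1 and −1.01 ± 0.32 (adjusted p = 0.0205) in V1, or −0.71 and −0.87 relative to the medians. With TMM scaling it was −0.71 (limma adjusted p = 0.0288) and −0.82 (adjusted p = 0.0231), so that the call held. Without either S1 KD replicate, or without either V1 control replicate or V1 KD replicate 1, EIF2B1 kept its direction and was no longer called. The same held in V1 on the transcripts listed in all 8 libraries, with a limma adjusted p = 0.0634.

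EIF2D, a factor that can place initiator tRNA without eIF2, had 114 and 72.7 RPM in S1 control and 49.2 and 47.8 in S1 KD. The limma difference was −0.91 ± 0.28 (adjusted p = 0.00846). EIF4EBP2 had 78.7 and 58.3 in S1 control and 35.1 and 37.8 in S1 KD, a difference of −0.89 ± 0.29 (limma adjusted p = 0.0140). Both calls were lost with TMM scaling, at adjusted p = 0.0869 for EIF2D and 0.0856 for EIF4EBP2 by limma, and relative to the median of all transcripts their differences were −0.55 and −0.54. They were also lost without S1 control replicate 1, at adjusted p = 0.212 for EIF2D and 0.137 for EIF4EBP2 by limma, and without either S1 KD replicate. Both members were lower in KD in V1 without overlap, with V1 limma adjusted p = 0.0842 and 0.141.

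EIF3F moved the other way. It had 41.4 and 42.2 RPM in S1 control and 62.4 and 70.7 in S1 KD, and 55.7 and 49.4 in V1 control and 74.9 and 101 in V1 KD. With the library total its limma difference was 0.67 ± 0.28 in S1 (adjusted p = 0.0770) and 0.73 ± 0.33 in V1 (adjusted p = 0.156), and it was not called. With TMM scaling it was called in both, at 1.03 (limma adjusted p = 0.00179) and 0.92 (adjusted p = 0.0135), and likewise when the total left out the most covered transcript. It was also called without S1 control replicate 2 (limma adjusted p = 0.0473) and without V1 KD replicate 1 (limma adjusted p = 0.04997). Read starts and the PARS-seq RPKM come from the same libraries and are not independent.

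**Figure D5:**
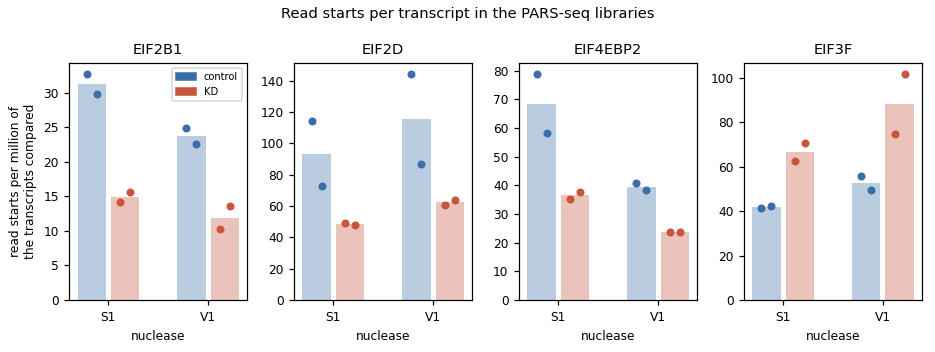
Read starts in RPM for the transcripts of EIF2B1, EIF2D, EIF4EBP2 and EIF3F in the S1 and V1 libraries, with a point for each replicate and a bar at the mean of 2, control in blue and KD in red. The KD points lie below the control points for EIF2B1, EIF2D and EIF4EBP2 and above them for EIF3F, with both nucleases.

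The other 13 named transcripts were not called in either nuclease. EEF1A1 had by far the most read starts, 6935 and 3770 RPM in S1 control and 3835 and 3484 in S1 KD, and 8729 and 4468 in V1 control and 4403 and 4598 in V1 KD, so that its control replicates differed more than the conditions. EEF1G was cut more by S1 than by V1, with 1361 and 1052 RPM in S1 control against 603 and 448 in V1 control. The transcripts of EEF1D, EIF1AX, EIF2B3, EIF2S3, EIF3G, EIF3H, EIF3I, EIF4G1, EIF4G3, EIF4H and EIF6 had limma differences between −0.60 and 0.18 in S1 and between −0.50 and 0.22 in V1, or between −0.24 and 0.54 in S1 and between −0.36 and 0.36 in V1 relative to the medians of all transcripts. Of these, EIF3G had the lowest value in S1, at 51.3 and 35.7 RPM in control against 23.2 and 34.5 in KD. EIF2S3 had the highest, at 210 and 206 RPM in control against 211 and 263 in KD.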

How the data were processed

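The deposited table gives RPKM per RefSeq gene, which the authors computed from uniquely aligned reads counted on RefSeq transcripts of hg19, and its PARS-seq columns are the authors' means over the S1 and V1 library of a replicate. The submitters' processing notes name cutadapt and Bowtie2. The per-base lists of the PARS-seq libraries hold the number of read starts at each base of a transcript, deposited without normalization, and were summed per transcript. No per-sample column was left unused (0), and columns were matched to samples through the table's header.

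Differences were computed on log2(RPKM + 1), which understates changes of low genes, over genes averaging 1 RPKM or more in the assays compared, and tested with limma 3.58.1 (R 4.3.3) with a mean trend over all genes, two-sided, with Benjamini-Hochberg adjusted p under 0.05. RNA-seq had 1 library per condition and was described by a 1.5-fold rule, and PARS-seq by the overlap of its values. Whole reads were recovered for 99.9% of genes taking the shortest transcript length that gives whole reads in every library, so that a gene's reads may be too few by a whole multiple, and were used for limma voom as an alternative only. Read starts were scaled by the total over transcripts listed in all 4 libraries of the nuclease, with 0.5 added, for transcripts with at least 10 at the median depth in 2 libraries. The main fits of Ribo-seq, S1 and V1 were run on simulated data with known changes and independent libraries. There the S1 and V1 fits recovered most of the changed transcripts. The Ribo-seq fit recovered few or none of the changed genes, so that a lack of calls in Ribo-seq says little. In the real data same-numbered libraries deviated together, so that recovery there may differ. The fit of the ratio change and limma voom were not simulated. With 2 libraries against 2, an exact permutation test of a single value cannot reach p = 0.05. Python 3.11.15, pandas 2.3.3 and matplotlib 3.10.9 were used.

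Members, role groups and lists were chosen with earlier results of these data known. Named by rule are the 2 members with the highest RNA-seq control RPKM in each role group, members called by limma or past 1.5-fold in RNA-seq, members with the same direction in all assays, members paired with a UCSC transcript, and close paralogs. Others that are named were chosen after their values were seen. Gene positions are from GENCODE v44 on GRCh37, start windows from RefSeq on GRCh38.p14.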

Additional observations from a re-analysis of the deposited data

How the results depend on the processing

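With the replicate block, limma called 143 genes in Ribo-seq and 4 for the ratio, but again no member, and the calls of members in S1 and V1 stayed at 3 and 1. In Ribo-seq the block gave 1046 genes and 2 members at an unadjusted p under 0.05, and voom with the block called 79 genes and no member, with 1201 genes and 4 members at that p. The numbers are not tied to a batch by the labels, although same-numbered libraries deviated together, with correlations of 0.811 in Ribo-seq, 0.467 in S1 and 0.463 in V1. Without the filter on low values the ratio change called 1 member, EIF4E1B, whose values are at or near 0. Leaving out 1 library gave 0 to 8 called members in S1, with 1 without control replicate 1, 8 without control replicate 2 and 0 without either KD replicate, and 0 to 1 in V1, with 0 without either control replicate, EIF3F in place of EIF2B1 without KD replicate 1, and EIF2B1 without KD replicate 2. V1 gave 2 with TMM scaling, 2 with the total without the most covered transcript and 0 on the transcripts listed in all 8 libraries. A 2-fold rule on log2(RPKM + 1) left 0 members in RNA-seq, and the 1.5-fold rule 11 in PARS-seq. Equal library medians moved the members' median ratio in control from −0.58 to −0.15 and that of all genes from −0.52 to −0.08. The count of non-overlapping Ribo-seq values itself, its count of 11 on rows with 1 symbol, and the alternatives of voom, of more than 100 reads in both assays and of equal medians for the Ribo-seq overlap were chosen after seeing the data and the alternatives changed no count of members called by over 1.5 times. The causes were not tested.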
